A study of Mus musculus with 2 samples.

Results

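The Notch pathway genes described here are 7 listed by symbol, out of the 19394 genes in the deposited matrix: the receptors Notch1, Notch2 and Notch3, the ligands Jag1 and Jag2, and the target genes Hes1 and Hey1. They were taken from a list of gene symbols, all 7 have a row in the matrix, and their values were read in 2 droplet single-cell RNA-seq libraries of mouse renal progenitors. One library came from cells given 0.2 µM panobinostat, an inhibitor of histone deacetylases, and the other from cells given DMSO vehicle, both for 48 h after 16 h of starvation. Cells of both libraries were sorted for GFP after 5 days of outgrowth from glomeruli of 2 healthy C57Bl/6 mice aged 9 weeks and carrying Pax2.rtTA, TetO.Cre and R26.mT/mG. In these mice the Pax2 promoter drives an inducible Cre that switches cells of the Pax2 lineage to GFP. The study's title gives its aim as the way panobinostat acts on these progenitors. The labels do not say whether the mice were pooled or whether both libraries drew on both, and there is 1 library per treatment. No test between treatments was therefore possible. Treatment and other differences between the cultures or libraries cannot be told apart, and the 95% intervals below cover counting error only. In sums over cells, fewer cells expressing a gene and less RNA per cell cannot be told apart either.

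Notch receptors sit in the membrane and are activated by Jagged or Delta-like ligands on neighbouring cells. The bound receptor is cut first by an ADAM protease and then by gamma-secretase, and the released intracellular domain joins the DNA-binding protein RBPJ and a Mastermind coactivator in the nucleus. There it switches on target genes, among them the Hes and Hey transcriptional repressors. In the developing kidney the pathway takes part in patterning the nephron, and in the adult glomerulus sustained activity in podocytes is known from kidney disease models.

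The panobinostat library held 2281 cells and 104188927 unique molecular identifiers (UMIs, each a counted molecule), and the vehicle library 2854 cells and 90754967 UMIs. Median depth was 42394 UMIs per panobinostat cell and 27924 per vehicle cell, and 0 cell barcodes were shared between libraries. All 8 progenitor and parietal epithelial markers passed 10 CPM (UMIs of a gene per 1000000 UMIs of its library). Pax2 stood at 24.9 CPM with panobinostat and 40.4 CPM with vehicle. Summed over each list, endothelial markers reached 74.6 CPM with panobinostat and 21.9 CPM with vehicle, of which 67.3 and 11.5 CPM were Egfl7. Of the other 7 endothelial markers, Cdh5, Tie1, Tek and Pecam1 did not exceed 0.815 CPM in either library, and Tie1 had 0 UMIs with panobinostat. Kdr stood at 2.57 CPM with panobinostat and 0.793 CPM with vehicle, and Plvap at 4.10 CPM with panobinostat and 1.18 CPM with vehicle. Emcn stood at 0.0864 CPM with panobinostat and 6.68 CPM with vehicle, where 7 cells held its 606 UMIs. Leukocyte markers summed to 67.8 CPM with panobinostat and 4.88 CPM with vehicle, of which 65.5 and 4.11 CPM were Cd68. With panobinostat and with vehicle, podocyte markers summed to 24.4 and 12.8 CPM, mesangial and stromal markers to 29.8 and 15.9 CPM, and tubule markers to 13.9 and 1.52 CPM. Of the stromal sums, 22.2 CPM with panobinostat and 14.5 CPM with vehicle were Gata3. The stromal markers Des (2.13 and 0.165 CPM), Dcn (1.20 and 0.0441 CPM), Pdgfra (1.78 and 0.353 CPM) and Pdgfrb (0.365 and 0.0992 CPM) had ratios of 3.68-fold to 27.2-fold, with panobinostat above vehicle in each. The other stromal markers with a row, Itga8 (4.72-fold), Col1a1 (2.48-fold) and Gata3 (1.53-fold), were also higher with panobinostat. Wt1 (podocytes) and Umod (tubule) had 0 UMIs with vehicle. The part of other cell types in the results below was not tested, except where cells were left out as stated.

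The 7 genes lie on 5 chromosomes in GRCm38. Notch1 (ENSMUSG00000026923) lies on chromosome 2 from 26457903 to 26516663 on the minus strand, and Jag1 (ENSMUSG00000027276) on the same chromosome and strand from 137081456 to 137116644. Notch2 (ENSMUSG00000027878) lies on chromosome 3 from 98013527 to 98150361 on the plus strand, and Hey1 (ENSMUSG00000040289) on chromosome 3 from 8663359 to 8667256 on the minus strand. Notch3 (ENSMUSG00000038146) lies on chromosome 17 from 32120820 to 32166852 and Jag2 (ENSMUSG00000002799) on chromosome 12 from 112907819 to 112929776, both on the minus strand. Hes1 (ENSMUSG00000022528) lies on chromosome 16 from 30064384 to 30067796 on the plus strand. Notch3 overlaps the antisense gene Gm17276, which had 15 UMIs with panobinostat and 3 with vehicle. The sources used here do not give whether counting used strand.

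Promoter windows, from 250 bases before to 50 bases after a transcript start, were found in RefSeq (GRCm38.p6) for 5 of the 7 genes, leaving out Hes1 and Hey1. The windows of Jag2 and Notch1 (chr2:26503773-26504072) lie wholly inside the gene spans given above. The RefSeq starts used for them are thus not the outer gene starts, and these windows are not upstream of those spans. The ligands Jag1 and Jag2 and the receptor Notch3 are shown because the ligands differed in direction, as described below, and Notch3 had nearly the same ratio as Jag2. Each is given on its gene's own strand, and capitals mark the GC box core GGGCGG on either strand.
Jag1 (chr2:137116471-137116770, minus strand): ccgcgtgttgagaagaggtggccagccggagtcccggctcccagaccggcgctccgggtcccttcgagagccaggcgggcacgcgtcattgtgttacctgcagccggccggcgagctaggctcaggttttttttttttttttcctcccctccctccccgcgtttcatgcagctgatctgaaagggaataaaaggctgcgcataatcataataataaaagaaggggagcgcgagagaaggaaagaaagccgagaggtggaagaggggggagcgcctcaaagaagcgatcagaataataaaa
Jag2 (chr12:112929446-112929745, minus strand): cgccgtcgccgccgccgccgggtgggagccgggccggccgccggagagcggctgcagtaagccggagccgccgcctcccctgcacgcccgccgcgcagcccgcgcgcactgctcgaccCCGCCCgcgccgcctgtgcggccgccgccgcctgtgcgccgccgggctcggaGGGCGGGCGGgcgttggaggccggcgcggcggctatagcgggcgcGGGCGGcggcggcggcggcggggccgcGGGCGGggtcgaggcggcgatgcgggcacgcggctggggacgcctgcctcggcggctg
Notch3 (chr17:32166841-32167140, minus strand): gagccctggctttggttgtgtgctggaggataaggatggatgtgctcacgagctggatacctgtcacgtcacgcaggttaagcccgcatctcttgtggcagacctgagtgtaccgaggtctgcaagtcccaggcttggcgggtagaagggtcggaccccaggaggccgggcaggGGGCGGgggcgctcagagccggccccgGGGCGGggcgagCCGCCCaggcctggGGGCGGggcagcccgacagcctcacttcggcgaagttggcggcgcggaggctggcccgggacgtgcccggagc
The Jag1 window held 0 GC box cores, 22 CpG dinucleotides and 55.7% G or C. The Jag2 window held 5 cores, a pair of them overlapping, with 63 CpG dinucleotides and 86.0% G or C. The Notch3 window held 4 cores, 25 CpG dinucleotides and 70.0% G or C. The windows of Notch1 and Notch2, whose ratios stayed under 2-fold, held 5 and 7 cores. Of 32841 mouse promoter windows of this length, 35.7% held a GC box core, and the median window had 7 CpG dinucleotides and 52.7% G or C. The core of the RBPJ motif, TGGGAA, searched on both strands, was in 0 of the 5 windows and in 25.6% of all windows.

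The target Hes1 and the ligand Jag2 were called higher with panobinostat, at 2.82-fold and 4.31-fold. The receptor Notch3 and the target Hey1 had ratios of 4.22-fold and 10.0-fold at levels too low for a call. Notch1, Notch2 and Jag1 stayed between 1.33-fold lower and 1.36-fold higher. Calls needed a level of 10 CPM in either library, a CPM ratio of 2-fold or more, and an interval without equality. By this rule 5 of the 7 genes could be called, of which 2, Hes1 and Jag2, were higher and 0 lower. Among all 8872 genes that could be called, 9.85% were higher and 11.0% lower, and their median log2 ratio was -0.07. The median was 0.45 over these 5 genes, of which Jag2 passed the floor through the panobinostat library alone. With vehicle, 4 of the 7 genes passed it. Over all 7 the median was 1.5, which takes in Notch3 and Hey1 under the floor, and over the 13119 genes past 1 CPM it was 0.03. The background past 10 CPM shifts with the scaling, and its median was -0.18 with TMM factors and -0.19 with DESeq2 size factors. With those factors 760 and 753 genes were higher and 1208 and 1224 lower, or 38.6% and 38.1% higher among those called, against 874 higher, 973 lower and 47.3% with CPM.

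**Figure D1:**
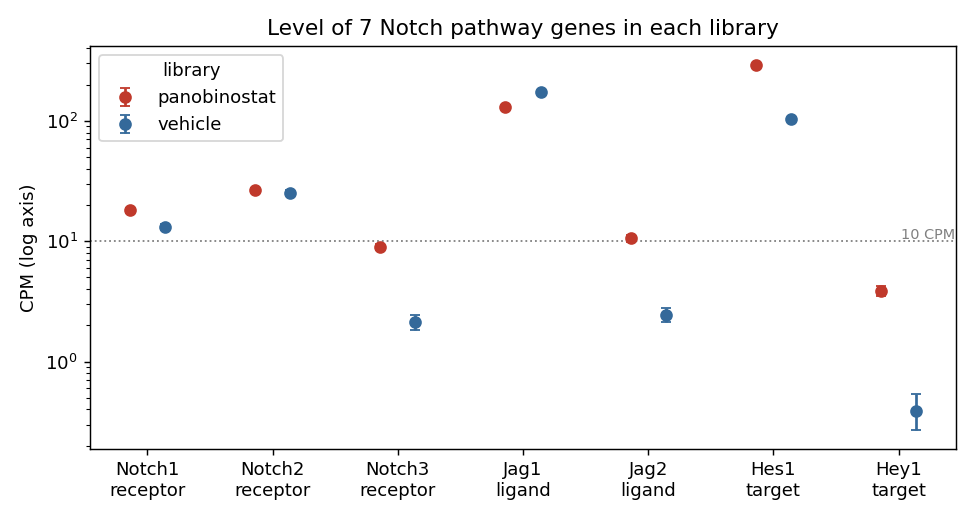
CPM (log axis) of each of the 7 genes in the panobinostat and the vehicle library, as points with exact 95% Poisson bars, and a dotted line at 10 CPM. Hes1 stood at 292.0 CPM with panobinostat against 103.4 CPM with vehicle, Jag1 at 130.8 against 173.9 CPM, and Hey1 at 3.86 against 0.386 CPM.

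Among the receptors, Notch1, which acts in many epithelia and in endothelium, stood at 18.0 CPM with panobinostat (1880 UMIs) and 13.2 CPM with vehicle (1201 UMIs). Its log2 ratio of panobinostat over vehicle was 0.45 (interval 0.34 to 0.55), so the difference was larger than counting error and under 2-fold. Notch2, a receptor needed for nephron formation in the mouse, was the most abundant of the 3 receptors in both libraries. It stood at 26.8 CPM with panobinostat (2793 UMIs) and 25.4 CPM with vehicle (2301 UMIs). Its log2 ratio was 0.08 (interval 0.00 to 0.16), and it turned to -0.04 with TMM factors and -0.05 with DESeq2 size factors, so no direction is given. Notch3, known best from smooth muscle cells and pericytes, stood at 8.96 CPM with panobinostat (934 UMIs) and 2.13 CPM with vehicle (193 UMIs). This receptor was 4.22-fold higher (log2 ratio 2.08, interval 1.85 to 2.31), but it reached 10 CPM in neither library and was not called. The stromal markers given above moved the same way, all but Gata3 at lower levels, and their part in the Notch3 ratio was not tested.

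The ligands differed in direction. Jag1, the main Jagged ligand of these cells, stood at 130.8 CPM with panobinostat (13630 UMIs) and 173.9 CPM with vehicle (15782 UMIs). It was lower by a log2 ratio of -0.41 (interval -0.44 to -0.38), under 2-fold. Jag2, its close relative, stood at 10.55 CPM with panobinostat (1099 UMIs) and 2.45 CPM with vehicle (222 UMIs). This made it 4.31-fold higher (log2 ratio 2.11, interval 1.90 to 2.32), a call that passed the 10 CPM floor through the panobinostat library alone. The call ended when cells were thinned to equal depth before summing, where the log2 ratio was 2.06 and its level was under the floor.

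Hes1 carried the largest difference in CPM. This repressor, the best known Notch target and also regulated by other pathways, stood at 292.0 CPM with panobinostat (30419 UMIs) and 103.4 CPM with vehicle (9383 UMIs). It was 2.82-fold higher (log2 ratio 1.5, interval 1.46 to 1.53), and 5.51% of all genes past the floor had a larger ratio. By level it ranked 496 of 19394 genes with panobinostat and 1600 with vehicle. Hey1, the other target, stood at 3.86 CPM with panobinostat (402 UMIs) and 0.386 CPM with vehicle (35 UMIs). It was 10.0-fold higher (log2 ratio 3.32, interval 2.82 to 3.86) and under the floor in both libraries. With the floor set at 1 CPM, Notch3 and Hey1 were called as well, so that 4 of 7 genes were higher and 0 lower. Hey1 passed that floor through the panobinostat library alone, and so could be called only higher. Of the 13119 genes past that floor, 17.9% were higher and 11.0% lower.

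In order of level, Hes1 led with panobinostat, followed by Jag1, Notch2, Notch1, Jag2, Notch3 and Hey1. With vehicle Jag1 and Hes1 changed places, and the order of the other 5 genes was the same. Neighbours in these orders had separate counting intervals except Jag2 and Notch3 with vehicle (2.13 to 2.79 and 1.84 to 2.45 CPM). In 3′ libraries each UMI stands for a molecule and not for a length of transcript, so levels were not divided by length, and how well each transcript was captured is not known.

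**Figure D2:**
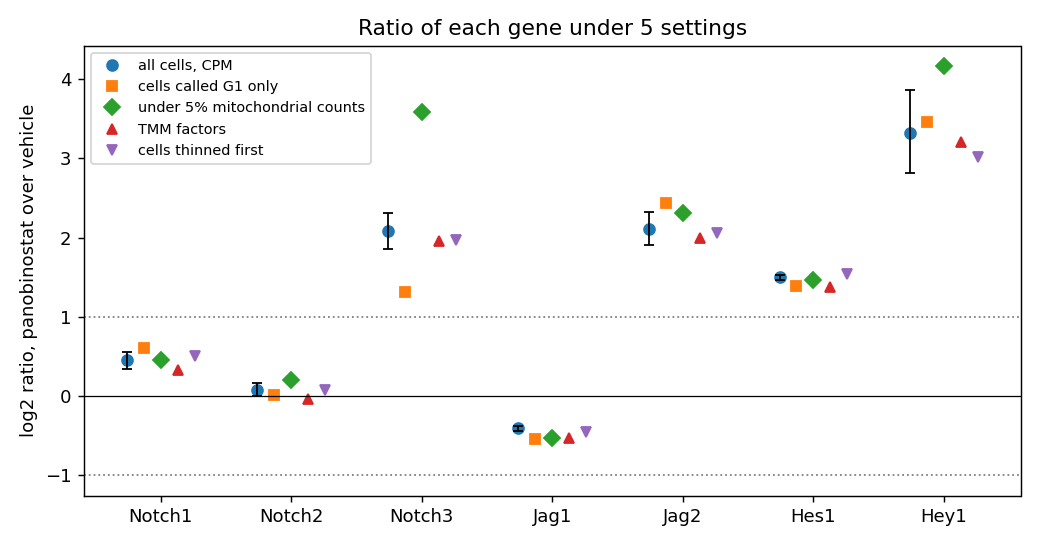
Log2 ratio of CPM, panobinostat over vehicle, for each gene with all cells (95% bars), cells called G1 only, cells under 5% mitochondrial counts, TMM factors, and cells thinned first. Hes1, Jag2, Notch3 and Hey1 lie above the dotted line at 1 in all 5 settings, Notch3 between 1.31 and 3.58, and Jag1 lies below 0 in all 5.

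The libraries differed in the cell-cycle genes their cells expressed, and the 7 genes were therefore also read by phase. Scored from S-phase and G2/M genes, 2277 of 2281 panobinostat cells (99.8%) were called G1, against 1019 of 2854 vehicle cells (35.7%). Phases depend on the cells scored together and are not read here as cycling. Over cells called G1 alone, Hes1 stood at 292.3 CPM with panobinostat and 111.5 CPM with vehicle, and its log2 ratio was 1.39 (interval 1.34 to 1.44). Jag2 stood at 10.6 and 1.94 CPM (log2 ratio 2.44, interval 2.07 to 2.84), and Hey1 at 3.86 and 0.350 CPM (3.46, interval 2.61 to 4.48). Each of the 3 stayed over 2-fold without the vehicle cells called S or G2/M, against 1.5, 2.11 and 3.32 over all cells.

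Notch3 was the gene that depended most on phase. With vehicle it stood at 3.63 CPM in cells called G1, 1.12 CPM in S and 1.49 CPM in G2/M, with an interval for G1 (2.99 to 4.36) apart from both others. Over G1 cells alone its log2 ratio of panobinostat over vehicle was 1.31 (interval 1.03 to 1.60), against 2.08 over all cells. Vehicle cells called S or G2/M, set against those called G1, had log2 ratios of -1.45 for Notch3, -0.20 for Jag1, -0.17 for Hes1, -0.11 for Notch2, 0.25 for Notch1 and 0.48 for Jag2. For Hey1 the interval of that ratio (-0.88 to 1.39) included equality, as it did for Notch2 (-0.23 to 0.01). In G1 cells 8.94% of 8669 genes past 10 CPM were higher with panobinostat and 7.08% lower, and the same 2 genes, Hes1 and Jag2, were called.

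To compare how many cells showed each gene, every cell was reduced at random to 18663 UMIs, and 60 panobinostat and 453 vehicle cells with fewer were set aside. Hes1 was seen in 89.5% of panobinostat cells (exact binomial interval 88.1 to 90.7) and 71.6% of vehicle cells (69.7 to 73.4), against 94.1% and 77.8% unthinned. Its mean was 5.63 UMIs per thinned panobinostat cell and 1.94 per thinned vehicle cell. Jag1 was seen in 81.7% of panobinostat cells (80.0 to 83.3) and 86.0% of vehicle cells (84.6 to 87.4). Unthinned, the order turned to 91.7% and 88.4%, while the CPM was lower with panobinostat, as in the thinned cells.

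The rarer genes were seen in more panobinostat cells. Jag2 had a UMI in 16.0% of thinned panobinostat cells (14.5 to 17.6) and 3.83% of vehicle cells (3.10 to 4.68), against 34.8% and 6.20% unthinned. Notch3 had one in 14.2% of thinned panobinostat cells (12.8 to 15.7) and 3.42% of vehicle cells (2.73 to 4.22), against 29.3% and 5.26% unthinned. Hey1 had one in 7.16% of thinned panobinostat cells (6.12 to 8.31) and 0.916% of vehicle cells (0.575 to 1.38), against 15.7% and 1.19% unthinned. No thinned cell held more than 2 Hey1 UMIs, and Hey1 UMIs with panobinostat were spread over 359 of the 2281 unthinned cells. Notch1 was seen in 27.5% of thinned panobinostat cells and 20.0% of vehicle cells, against 50.3% and 29.5% unthinned. Notch2 was seen in 36.3% (34.3 to 38.3) of panobinostat and 33.8% (31.9 to 35.7) of vehicle cells, with overlapping intervals, against 59.6% and 45.6% unthinned. With sorted cells alone, no type that should be without these genes was at hand, and the share that free RNA would give was not tested.

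**Figure D3:**
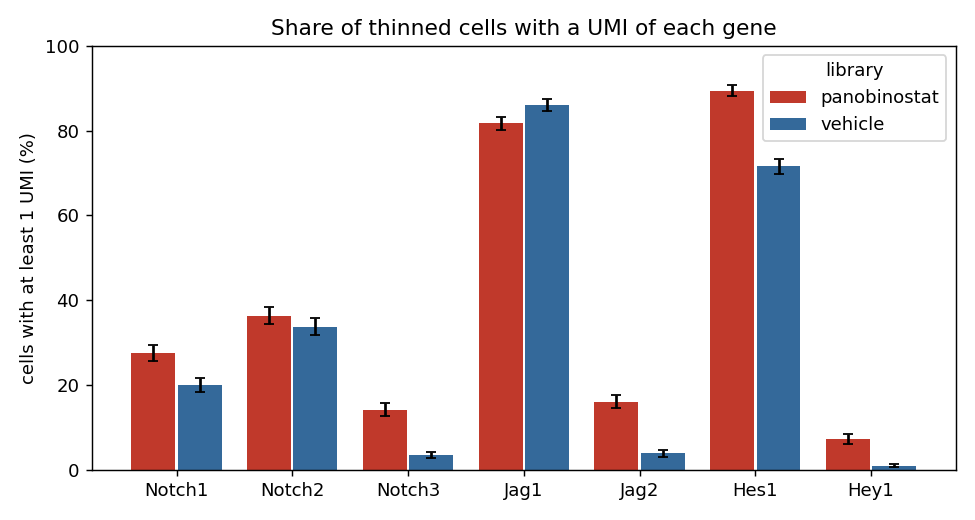
Percentage of cells with at least 1 UMI of each gene after thinning to 18663 UMIs, in 2221 panobinostat and 2401 vehicle cells, with exact 95% binomial bars. Bars of Hes1, Notch1, Notch3, Jag2 and Hey1 are higher with panobinostat, that of Jag1 is lower, and the error bars of Notch2 overlap.

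Variance between cells over the mean was largest for Hes1 and Jag1, the genes with the highest means in thinned cells of both libraries. Mean UMIs per thinned cell were 5.63 for Hes1 and 2.38 for Jag1 with panobinostat, and 1.94 and 3.26 with vehicle. This measure can rise with the mean, and genes were not matched for level. The order of the genes and the differences between libraries therefore do not tell spread apart from level. The variance of Hes1 over its mean in thinned cells was 4.77 with panobinostat and 2.97 with vehicle, and that of Jag1 was 1.85 and 2.70. For the median gene past 10 CPM it was 1.10 with panobinostat and 1.12 with vehicle. The other 5 genes lay between 0.988 and 1.17 with panobinostat, and between 0.991 and 1.44 with vehicle, the highest being Notch3. In the 10% of cells with most Hes1 lay 30.6% of its UMIs with panobinostat and 36.2% with vehicle.

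A receptor, a ligand and a target were seen together in 47.7% of thinned panobinostat cells (45.6 to 49.8) and 30.5% of vehicle cells (28.7 to 32.4). At least 1 of the 3 receptors was seen in 60.4% of panobinostat and 48.1% of vehicle cells, and both ligands in 13.4% of panobinostat and 3.25% of vehicle cells. Any ligand was seen in 84.3% of panobinostat and 86.6% of vehicle cells, and any target in 90.7% and 71.7%. Joint detection of receptor, ligand and target depends on these single shares, and was not set against their product. None of the 7 genes was seen in 1.22% of panobinostat cells and 2.75% of vehicle cells. Joint detection lay close to the product of the single shares for the abundant pairs. Jag1 and Hes1 were seen together in 73.8% of panobinostat cells, with a product of 73.1%, and in 61.7% of vehicle cells, with a product of 61.5%. As a ratio, the pair farthest above its product was Notch3 with Jag2 in vehicle cells, seen together in 9 of 2401 cells (0.375%, interval 0.172 to 0.710) against a product of 0.131%. Across thinned cells, Pearson correlations of log counts over the 21 pairs ran from -0.044 to 0.082 with panobinostat and from -0.034 to 0.146 with vehicle. The highest in each library was that of Notch2 with Jag1. Such values in sparse counts are given as a description, and can neither show nor exclude a relation between the genes.

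Hes1 was read next in cells with and without a UMI of each receptor or ligand. In thinned panobinostat cells Hes1 stood at 331.7 CPM (317.1 to 346.8) with a Notch3 UMI and 296.8 CPM (291.2 to 302.5) without. It stood at 318.9 CPM (308.7 to 329.5) with a Notch1 UMI and 295.2 CPM (289.1 to 301.5) without, and at 316.2 and 293.5 CPM with and without Notch2. In thinned vehicle cells the Notch3 split gave 127.4 CPM (110.2 to 146.6) with and 102.9 CPM (99.9 to 106.0) without. The Notch1 and Notch2 splits gave overlapping intervals there. With and without Jag1, Hes1 stood at 303.1 and 295.9 CPM in panobinostat cells, with overlapping intervals, and at 101.8 (98.7 to 105.1) and 115.5 CPM (107.2 to 124.2) in vehicle cells. With and without Jag2, Hes1 stood at 287.4 CPM (274.6 to 300.6) and 304.5 CPM (298.7 to 310.3) in panobinostat cells and at 106.6 and 103.6 CPM in vehicle cells, with overlapping intervals in both. For Hey1 the intervals with and without each receptor or ligand overlapped in both libraries, as for Jag2 in panobinostat cells, at 2.87 CPM with and 4.16 CPM without. The Hes1 intervals cover counting error only. Hes1 varied by more than that between cells, with a variance over its mean of 4.77 in thinned panobinostat and 2.97 in thinned vehicle cells. Separate intervals therefore do not show that Hes1 went with a receptor or ligand. The Hes1 differences were small beside that between libraries, and cells of a library are not replicates.

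Clusters were made from both libraries together without any Notch pathway gene among the variable genes. All but 1 of the 9 clusters held cells of a single library, so clusters and treatment cannot be told apart. With panobinostat, Hes1 ran from 235.6 CPM in cluster 8 (418 cells, led by Sbsn, Pdpn and Vim) to 346.9 CPM in cluster 2 (713 cells, led by Kitl, Pmp22 and Clu). Notch3 ran the same way, from 5.48 CPM in cluster 8 to 12.4 CPM in cluster 2. Cluster 1 (1141 cells, with Cldn16 and Timp3 among its leading genes) had the highest Jag1 level of the panobinostat clusters, at 141.5 CPM against 116.2 CPM in cluster 2. Jag2 lay between 9.89 and 11.7 CPM and Hey1 between 3.66 and 4.30 CPM in these 3 clusters, with overlapping intervals.

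The vehicle clusters differed more. In cluster 6 (437 cells, led by Havcr1, Folr1 and Aqp1) Jag2 stood at 5.68 CPM (4.44 to 7.15), Notch3 at 0.473 CPM (0.174 to 1.03), Notch1 at 7.96 CPM and Hes1 at 78.2 CPM. In cluster 7 (436 cells, led by Plac8, Spink8 and Cavin3) Jag2 stood at 0.824 CPM (0.411 to 1.48), Notch3 at 4.87 CPM (3.76 to 6.21), Notch1 at 13.3 CPM and Hes1 at 130.6 CPM. Jag2 was thus highest in the cluster where Notch3, Notch1 and Hes1 were lowest among the 5 larger vehicle clusters. Jag1 was high in both, at 212.5 and 218.9 CPM, against 143.8 CPM in cluster 4 (691 cells, led by Ube2c, Top2a and Cenpe). Notch2 stayed between 24.8 and 27.1 CPM across these 5 clusters. Cluster 9, with 86 vehicle and 9 panobinostat cells led by Acta1, Myl9 and Acta2, had a median of 14673 UMIs per cell. In its vehicle cells Hes1 stood at 21.5 CPM and Jag1 at 18.7 CPM, and Notch3, Jag2 and Hey1 had 0 UMIs, with an upper interval bound of 2.65 CPM each. Leaving that cluster out moved none of the 7 log2 ratios by more than 0.02.

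**Figure D4:**
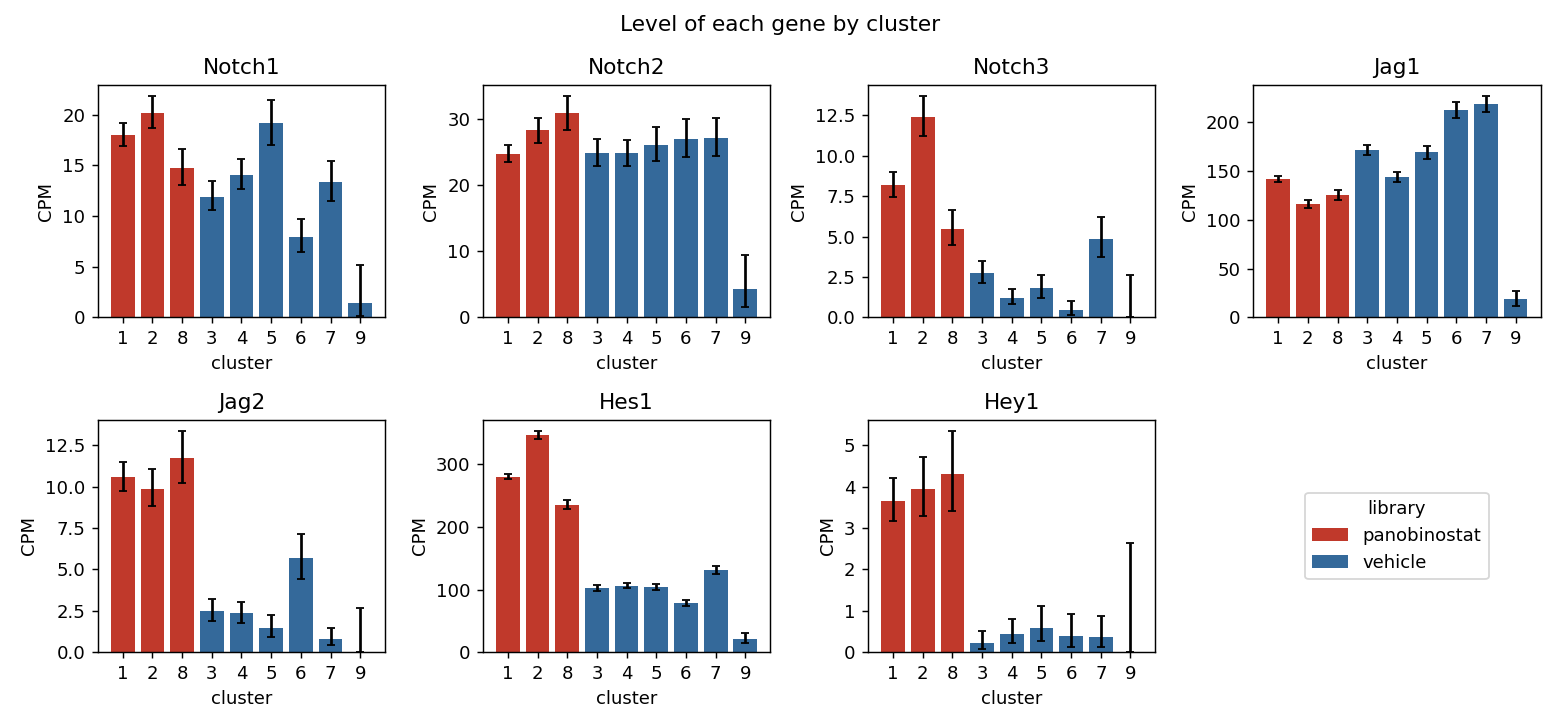
CPM of each gene in clusters with at least 50 cells of a library, panobinostat clusters on the left and vehicle clusters on the right of each panel, with exact 95% Poisson bars. Hes1, Jag2, Notch3 and Hey1 are higher in each of the 3 panobinostat clusters than in each of the 6 vehicle clusters, by 5.48 against 4.87 CPM for the closest Notch3 pair, whose bars overlap.

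At a finer split (resolution 1.0) a cluster of 77 panobinostat cells and 1 vehicle cell appeared, led by Mt1, Mt2, Pltp, Gal and Srxn1. In its panobinostat cells Notch3 stood at 32.0 CPM (26.1 to 38.7), Jag2 at 29.2 CPM (23.7 to 35.7), Jag1 at 38.1 CPM (31.7 to 45.3) and Hes1 at 228.0 CPM. Against the panobinostat library as a whole, Notch3 and Jag2 were high in these cells and Jag1 was low. Without this cluster the log2 ratio of Notch3 between libraries was 1.95 and that of Jag2 2.02, and the call of Jag2 ended because its level was then under the floor. At this finer split Jag2 was less even between the larger panobinostat clusters. It stood at 7.79 CPM (6.80 to 8.88) in the cluster led by Kitl (643 cells) and 10.6 CPM (9.74 to 11.5) in that led by Cldn16. Jag1 stood at 125.0 CPM in the Kitl cluster and 125.5 CPM in that led by Sbsn.

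Even the genes that varied most like each of the 7 from cell to cell were only weakly correlated with it. Over 7247 genes past 10 CPM in both libraries, likeness was taken as the smaller of the Pearson correlations across 2221 panobinostat and across 2401 vehicle cells, all thinned. Closest to Jag1 were Igfbp7 (0.223 with panobinostat, 0.201 with vehicle), Nox4 (0.188 and 0.186) and Sox4 (0.157 and 0.180). Closest to Hes1 were Clu (0.129 and 0.125), App (0.154 and 0.115) and Arl4c (0.115 and 0.113). Closest to Notch3 were 1700007K13Rik (0.172 and 0.168), Dcxr (0.126 and 0.162) and Trp53inp1 (0.112 and 0.132). Closest to Notch2 were Slc39a1 (0.149 and 0.205), Actb (0.148 and 0.183) and Rpgrip1 (0.114 and 0.165). For Notch1 (Plec, Ehd4 and Herc1), Jag2 (1700007K13Rik, Uvrag and Glrx3) and Hey1 (Hist1h4i, Hist1h1c and Zcchc11) all values were at most 0.092. These are weak correlations in sparse counts, over cells that share a library and, by thinning, a depth, and are given as a description.

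Of the other Notch pathway genes, 50 of 51 listed had a row, 25 passed 10 CPM, and 1 was called higher and 2 lower. Their median log2 ratio was -0.13 over those 25 and 0.29 over all 50, which takes in genes under the floor. Over all genes past the floor the shares were 9.85% and 11.0%. Among 9 genes of receptor cleavage, Aph1b, a gamma-secretase subunit, was higher (21.2 CPM with panobinostat and 8.98 CPM with vehicle, log2 ratio 1.24). It passed the 10 CPM floor through the panobinostat library alone. Its near-identical copy Aph1c, named after its values were seen, had the same ratio at a lower level, and reads may be split between the copies. The subunits Aph1a (69.1 and 74.0 CPM) and Psenen (68.8 and 82.8 CPM) stayed under 2-fold. So did the shedding proteases Adam10 (66.4 and 48.7 CPM) and Adam17 (32.6 and 22.5 CPM), also named after their values were seen.

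Of 6 genes of receptor processing and glycosylation, Poglut1, which adds O-glucose to Notch repeats, was lower (14.98 CPM with panobinostat and 30.0 CPM with vehicle). Its log2 ratio of -1.0 sat at the threshold, and its call ended with ratios centred on the median gene. The fucosyltransferase Pofut1 (10.4 and 10.52 CPM) and the protease Furin (19.2 and 35.4 CPM) were not called. Of 13 genes of ligand and receptor turnover, the Deltex relative Dtx4 was lower (3.78 CPM with panobinostat and 10.75 CPM with vehicle, log2 ratio -1.51). The ubiquitin ligase subunit Fbxw7 (58.6 and 33.0 CPM) and the ubiquitin ligase Itch (25.4 and 43.2 CPM), both acting on Notch receptors, stayed under 2-fold.

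Of 9 genes of the nuclear complex 6 passed the floor, and 0 of these 6 were called, against 9.85% higher and 11.0% lower over all genes. Rbpj, the DNA-binding partner of all Notch receptors, was added once its level was known, and stood at 47.9 CPM with panobinostat and 49.2 CPM with vehicle (log2 ratio -0.04, interval -0.10 to 0.02). Over G1 cells it stood at 47.9 CPM with panobinostat and 40.0 CPM with vehicle, which turned the log2 ratio to 0.26 (interval 0.17 to 0.35). Snw1, a coactivator that also takes part in splicing, stood at 91.3 and 136.0 CPM, and the histone demethylase Kdm5a at 90.0 and 65.7 CPM. Of the other targets, Hes6, known to counteract Hes1, stood at 32.8 and 35.5 CPM (log2 ratio -0.11). Nrarp, a feedback inhibitor and Notch target, stood at 9.26 and 5.87 CPM (log2 ratio 0.66, interval 0.50 to 0.81), and over G1 cells at 9.27 and 3.63 CPM (1.35, interval 1.07 to 1.65). Chosen after their values were seen, Hes5 had 2 UMIs with panobinostat and 1 with vehicle, and Heyl 79 and 11, at under 1 CPM in both libraries.

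Genes between 1 and 10 CPM held the largest ratios, and those in this paragraph except Dlk1 and Dll1 were named after their values were seen. With the floor at 1 CPM, 7 of 42 other pathway genes were higher and 3 lower, set against 17.9% and 11.0% of all genes. Of those higher, Dtx1, Dlk1, Dll3 and Neurl1a (2.80 and 0.595 CPM) passed this floor through the panobinostat library alone. These genes could therefore be called only higher. Dtx1, a Deltex regulator of Notch and itself a Notch target in some cells, had 861 UMIs with panobinostat in 666 of 2281 cells and 1 UMI with vehicle in 2854 cells (log2 ratio 9.55, interval 7.07 to 14.86). Dlk1, a membrane protein related to the Delta ligands and part of the imprinted Dlk1-Dio3 region, had 705 UMIs in 285 panobinostat cells, with up to 49 in a cell, and 5 UMIs in 4 vehicle cells. Its log2 ratio was 6.94 (interval 5.71 to 8.57), an interval that leaves out this clumping. Dll3, a Delta-like protein that acts inside the cell, had 156 UMIs with panobinostat and 4 with vehicle (log2 ratio 5.09). Dll1, an activating Delta-like ligand, stood at 1.79 and 1.48 CPM, with an interval of the log2 ratio (-0.05 to 0.61) that included equality. The endothelial receptor Notch4 and ligand Dll4 did not exceed 0.661 CPM in either library.

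**Figure D5:**
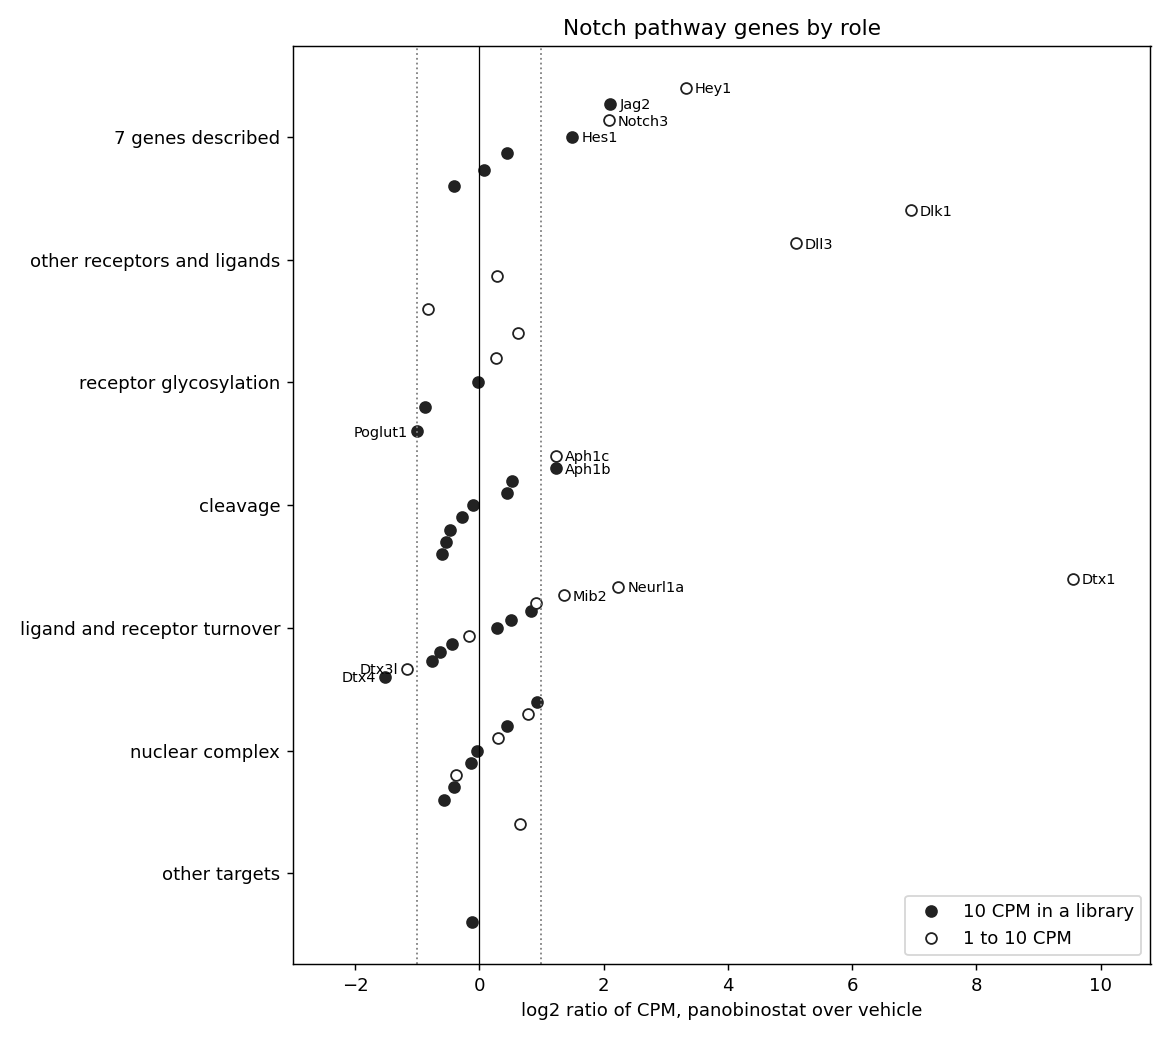
Log2 ratio of CPM, panobinostat over vehicle, of the 7 genes and of other Notch pathway genes that reached 1 CPM, by role. Filled points reached 10 CPM in a library, open points did not, dotted lines mark 2-fold, and genes at least 2-fold apart carry names. Dtx1 (9.55), Dlk1 (6.94) and Dll3 (5.09) lie farthest to the right, and the nuclear complex lies within 2-fold.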

How the data were processed

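The authors deposited raw UMI counts per gene and cell, not normalized, for 19394 genes and 5135 cells of 2 libraries, made as 3′ gene expression libraries on a 10x Chromium instrument per the labels' protocols. Cell Ranger 3.0.1 and mm10 are named in the submitters' processing notes, and the annotation and cell filter are not given in the sources used here. Cells were assigned to libraries by the mark ending each barcode, read as control for vehicle. Gene coordinates came from GENCODE M21 by symbol (98.7% of symbols matched).

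Counts were summed per library and scaled to CPM. Ratios have exact conditional binomial 95% intervals, levels exact Poisson and shares exact binomial (Clopper-Pearson) intervals. Calls follow a rule of size, with no p-value. Code was tested on simulated counts. Phases were scored with scanpy 1.11.5, and 2000 variable genes, 30 principal components and 15 neighbours gave clusters with leidenalg 0.10.2 at resolution 0.5. TMM factors came from edgeR 4.0.16 and size factors from DESeq2 1.42.0. Doublets were not called. The named genes are all 7 members, each called pathway gene, up to 2 uncalled ones of highest CPM per role, and 3 most alike genes per member. Other pathway genes in the text were chosen after their values were seen, as stated there. The 7 genes and the lists were chosen with earlier results of these data known. Some marker and cluster genes are not reported here.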

Additional observations from a re-analysis of the deposited data

How the results depend on the processing

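Results were recomputed under 15 alternatives, of which 3 were chosen after seeing the data. The other floors and folds change calls alone, so 10 alternatives could move a log2 ratio. Those of Hes1 (1.37 to 1.57), Jag2 (1.98 to 2.44), Notch3 (1.31 to 3.58), Hey1 (3.01 to 4.16), Notch1 (0.32 to 0.61) and Jag1 (-0.54 to -0.34) kept their sign in those 10. That of Notch2 ran from -0.05 to 0.20.

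The count of the 7 genes called higher, 2 by the main rule, was 4 at 1 CPM or without any floor. It was 3, of 6 past the floor, in cells under 5% mitochondrial counts, where Notch3 was past 10 CPM and called. It was 1 with a floor of 50 CPM, at 3-fold, after thinning, and without the 77-cell cluster. The other pathway genes, 1 higher and 2 lower, became 7 higher at 1 CPM, 10 higher and 4 lower with no floor, 0 and 0 at 50 CPM, 3 and 6 at 1.5-fold, and 0 and 0 at 3-fold. They were 2 higher, of 27 past the floor, in cells under 5% mitochondrial counts. They were 1 lower with median centring, with a mean over cells and with thinning. Over all genes, 874 higher and 973 lower of 8872 became 2344 higher of 13119 at 1 CPM, and 295 and 369 of 3657 at 50 CPM. They became 4125 and 1856 of 19394 with no floor, and of 8872 genes 1708 and 2059 at 1.5-fold and 448 and 393 at 3-fold. In cells under 5% mitochondrial counts, 1165 were higher and 1260 lower of 8970, so more of all genes were called there too. In cells called G1, 614 were lower.

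The largest shift of a single gene was that of Notch3 in cells under 5% mitochondrial counts. It stood there at 11.8 CPM in 198 panobinostat cells and 0.990 CPM in 1322 vehicle cells (log2 ratio 3.58, interval 3.04 to 4.13). Of those 198 cells, 24 belonged to the 77-cell cluster. The cause was not tested. Leaving out the 5 vehicle cells with UMIs of Emcn and of Cdh5 or Pecam1 moved no log2 ratio of the 7 genes by more than 0.01. Thinning to 10000 UMIs kept the direction of the difference in share of cells for the 7 genes. At resolution 1.0 the highest panobinostat cluster stood 5.79-fold over the lowest for Notch3, 3.75-fold for Jag2, 3.72-fold for Jag1 and 1.79-fold for Hey1, against 2.26, 1.18, 1.22 and 1.17-fold at resolution 0.5. No paired analysis was possible because there is 1 library per treatment. Levels near 1 CPM rest on few UMIs, such as the 35 of Hey1 with vehicle, and variation between cultures and animals was not measured.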
